A study of Mus musculus with 25 samples.

Results

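The genes described here are 6 parts of the hepatocyte growth factor (HGF) and MET pathway: Hgf, Met, Hgfac, St14, Spint1 and Spint2. They were chosen by symbol from the 55450 genes of the count table, each symbol matched 1 row, and all 6 passed the filter on low counts. HGF is a growth factor made mainly by mesenchymal cells, secreted as an inactive single chain that binds heparan sulphate in the matrix. A serine protease has to cut that chain before it can activate MET, a receptor tyrosine kinase of epithelial cells, melanocytes and other cells. HGFAC and the membrane protease matriptase (St14) make this cut, and the Kunitz-type inhibitors HAI-1 (Spint1) and HAI-2 (Spint2) restrain them. In melanocytes, MET signalling drives growth and movement, and MET is a known target gene of the melanocyte factor MITF.

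The tumours were melanomas of the mouse line B2905, also named M4, grown in C57BL/6 mice. As background, the line comes from a mouse carrying an Hgf transgene under a metallothionein promoter and exposed to UV, and a count per gene does not separate transgene from endogenous Hgf transcripts. Of 40 implanted mice, 30 received an antibody against CTLA-4, an inhibitory receptor of T cells, and 5 an isotype IgG2b antibody. Each was given at 10 mg/kg, 2 doses a week for 2 weeks, starting when tumours averaged 75 mm3. The remaining mice were left untreated and are not analysed here. Sequenced were 5 tumours under IgG2b, called controls here, and 20 under anti-CTLA-4: 6 non-responders that kept growing, 6 stable tumours and 8 responders that shrank, as judged in the 10 to 11 days after the last dose. All groups share the cell line and the host strain, and the labels give neither age nor sex. Each library is labelled with its own tumour number, so p-values measure the spread between these tumours, and the replicate numbers used here follow the order of the records and pair nothing.

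Library composition bears on every value below. Protein-coding genes took 82.9% to 89.2% of counts in controls, non-responders and stable tumours, but 23.8% to 74.3% in 7 of the 8 responders and 87.0% in responder 5. The share and the responder group thus largely coincide, so a fit adjusted for the share cannot separate them. Libraries were numbered group by group in the labels, which do not say whether the numbers follow the order of processing. If they do, that order and group cannot be told apart. The 7 melanocytic markers (Mitf, Dct, Pmel, Tyr, Tyrp1, Mlana, Sox10) summed to 10504 to 17109 CPM (counts scaled to a common library size) in controls, 723 to 13868 CPM in non-responders, 227 to 504 CPM in stable tumours and 303 to 722 CPM in responders, so transcripts of the labelled cell type were present in every group but at very different levels. In responders Sox10 and Mitf, with medians of 199 and 81.8 CPM, made up most of a median sum of 373 CPM, while Tyr and Mlana were at 0 and Dct at 0.161 CPM in the lowest responder for each. In bulk tumours, fewer cells of a type and less RNA per cell cannot be told apart.

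Sequence upstream of the start site is shown for the receptor, the ligand and both inhibitors, because Met and Hgf differed in opposite directions between groups and the inhibitors in the same direction. Each stretch is 5′ to 3′ on the gene's strand, from RefSeq (GRCm38.p6). It ends before the first annotated start, which leaves 93 bases for Met and 250 for the others. Capitals mark matches to CATGTG and CACGTG (the E-boxes bound by MITF and its relatives), GGGCGG (a GC box) or TGACTCA (an AP-1 site), on either strand.
Met, chr6:17463707-17463799, plus strand: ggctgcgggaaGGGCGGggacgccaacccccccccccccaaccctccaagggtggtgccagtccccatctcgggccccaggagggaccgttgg
Hgf, chr5:16553245-16553494, plus strand: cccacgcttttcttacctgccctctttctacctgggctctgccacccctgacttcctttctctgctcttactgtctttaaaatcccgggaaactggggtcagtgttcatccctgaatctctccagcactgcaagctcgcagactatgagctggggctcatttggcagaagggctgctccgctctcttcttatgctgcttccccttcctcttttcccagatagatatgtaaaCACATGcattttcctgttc
Spint1, chr2:119237110-119237359, plus strand: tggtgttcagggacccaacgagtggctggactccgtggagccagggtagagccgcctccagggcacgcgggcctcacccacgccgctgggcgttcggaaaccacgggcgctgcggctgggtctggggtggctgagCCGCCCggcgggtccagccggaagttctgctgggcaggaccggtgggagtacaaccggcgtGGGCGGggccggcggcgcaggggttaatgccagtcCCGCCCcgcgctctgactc
Spint2, chr7:29281978-29282227, minus strand: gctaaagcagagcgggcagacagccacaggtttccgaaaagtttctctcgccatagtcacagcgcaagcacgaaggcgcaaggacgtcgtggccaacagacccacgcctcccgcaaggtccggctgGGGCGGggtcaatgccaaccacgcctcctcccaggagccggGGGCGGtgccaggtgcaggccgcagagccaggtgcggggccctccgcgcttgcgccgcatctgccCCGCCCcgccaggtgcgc

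Over the 250 bases before the RefSeq start, Spint1 and Spint2 each held 3 GC boxes and none of the other motifs. Hgf held CACATG, the reverse of CATGTG, 19 bases before the start and no GC box. Met also held 3 GC boxes, of which 1 is printed, and CACGTG 126 bases and an AP-1 match 54 bases before the start, both within the part that another annotation counts as transcribed and that is therefore not printed. Of 32851 mouse promoters of that length, 32.7% held GGGCGG, 12.3% CATGTG, 6.02% CACGTG and 4.46% TGACTCA. These matches are a description of letters.

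Transcripts of the ligand were more abundant under anti-CTLA-4 than in controls. Hgf (ENSMUSG00000028864.7, chromosome 5, 16553495 to 16620152, plus strand) was lowest in controls, at 4.70, 4.05, 4.15, 4.66 and 7.29 CPM in controls 1 to 5. Non-responders had a lowest, median and highest level of 4.25, 9.16 and 14.8 CPM, responders 9.15, 12.4 and 19.7 CPM, and stable tumours 12.4, 15.7 and 26.8 CPM. Every stable tumour and every responder lay above every control, while 4 of 6 non-responders did. The mean was 4.97 ± 1.33 CPM in controls (SD, n = 5), 9.37 ± 3.87 CPM in non-responders (SD, n = 6), 17.4 ± 5.73 CPM in stable tumours (SD, n = 6) and 13.5 ± 3.64 CPM in responders (SD, n = 8).

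Against controls, Hgf rose in stable tumours by 1.81 on the log2 scale (SE 0.28, edgeR adjusted p = 1.8e-05), a 3.51-fold difference. It rose in responders by 1.45 (SE 0.27, adjusted p = 6.98e-05) and in non-responders by 0.92 (SE 0.28, adjusted p = 0.0271). The non-responder call did not hold when control 1, 2, 3 or 4 or non-responder 4 or 6 was dropped, without the low-count filter, or when only these groups were fitted, and its log2 fold change ran between 0.74 and 1.09 as tumours were dropped. Stable tumours were also above non-responders by 0.90 (SE 0.26, adjusted p = 0.0228). That call did not hold without non-responder 2 or 3 or stable 3 or 4, or when only these groups were fitted. Responders were 0.53 above non-responders (SE 0.24, adjusted p = 0.0739) and 0.36 below stable tumours (log2 fold change -0.36, SE 0.24, adjusted p = 0.228), and neither passed the threshold. The first was called under 5 of 11 other settings, namely the stricter filter (0.62, adjusted p = 0.0349), adjustment for the log2 protein-coding share (0.75, adjusted p = 0.0454) and the 3 limma fits (0.45 to 0.63), and also without non-responder 4 or 6.

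Markers of cells that can make HGF also differed between groups, and not all in the order of Hgf. The 6 fibroblast markers summed to 3304 to 6250 CPM in controls, 5882 to 13673 CPM in non-responders, 7444 to 15306 CPM in stable tumours and 6947 to 15886 CPM in responders. Col1a1, Col1a2 and Col3a1 carried most of this sum. In the same order of groups, the median of Lum was 69.2, 152, 120 and 40.9 CPM, and that of Dcn 137, 254, 357 and 150 CPM. Among these markers, Lum alone had a lower median in responders than in controls. The 6 neutrophil markers summed to 2.83 to 5.07 CPM in controls, 3.61 to 34.1 CPM in non-responders, 27.9 to 57.6 CPM in stable tumours and 30.2 to 68.5 CPM in responders, with Ly6g at 0 in all controls. Csf3r carried most of that sum, with means of 3.07, 13.2, 31.8 and 33.6 CPM in that order of groups. No other neutrophil marker had a group mean above 3.84 CPM. From non-responders to responders the median of S100a9 went from 0.284 to 0.187 CPM, while those of S100a8, Cxcr2 and Retnlg went up. The 5 macrophage markers ranged from 379 to 666 CPM in controls, 513 to 1494 CPM in non-responders, 1388 to 2239 CPM in stable tumours and 638 to 1898 CPM in responders. From non-responders to responders the median sum went from 10188 to 8343 CPM for fibroblast markers, from 839 to 781 CPM for macrophage markers and from 14.4 to 35.2 CPM for neutrophil markers, while the median of Hgf went from 9.16 to 12.4 CPM. Endothelial and mast cell markers were lowest in responders. The endothelial sum was 115 to 167 CPM in controls, 124 to 247 CPM in non-responders, 71.1 to 124 CPM in stable tumours and 37.3 to 91.7 CPM in responders. For mast cell markers it was 28.4 to 80.8, 53.8 to 107, 18.0 to 56.9 and 6.92 to 38.9 CPM in the same order. The part of any of these cells in the Hgf difference was not tested.

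The receptor went the other way. Met (ENSMUSG00000009376.15, chromosome 6, 17463800 to 17573980, plus strand) stood at 1081, 949, 816, 1116 and 1174 CPM in controls 1 to 5. Stable tumours had a lowest, median and highest level of 75.0, 92.0 and 123 CPM, and responders 51.3, 69.5 and 235 CPM. No stable tumour or responder reached any control.

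Non-responders were the group with the widest spread of Met. Non-responder 3, at 1045 CPM, lay among the controls, and non-responders 2 and 1 followed at 584 and 350 CPM. Non-responders 5 and 6, at 103 and 89.0 CPM, lay within the range of the stable tumours, and non-responder 4, at 135 CPM, just above it. The group mean of 384 ± 376 CPM (SD, n = 6) therefore describes few of its tumours. The mean was 1027 ± 144 CPM in controls (SD, n = 5), 95.7 ± 18.7 CPM in stable tumours (SD, n = 6) and 91.7 ± 60.4 CPM in responders (SD, n = 8), the last above 6 of the 8 responders. Responder 3, at 235 CPM, stood above the other responders, which ran up to 103 CPM.

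**Figure D1:**
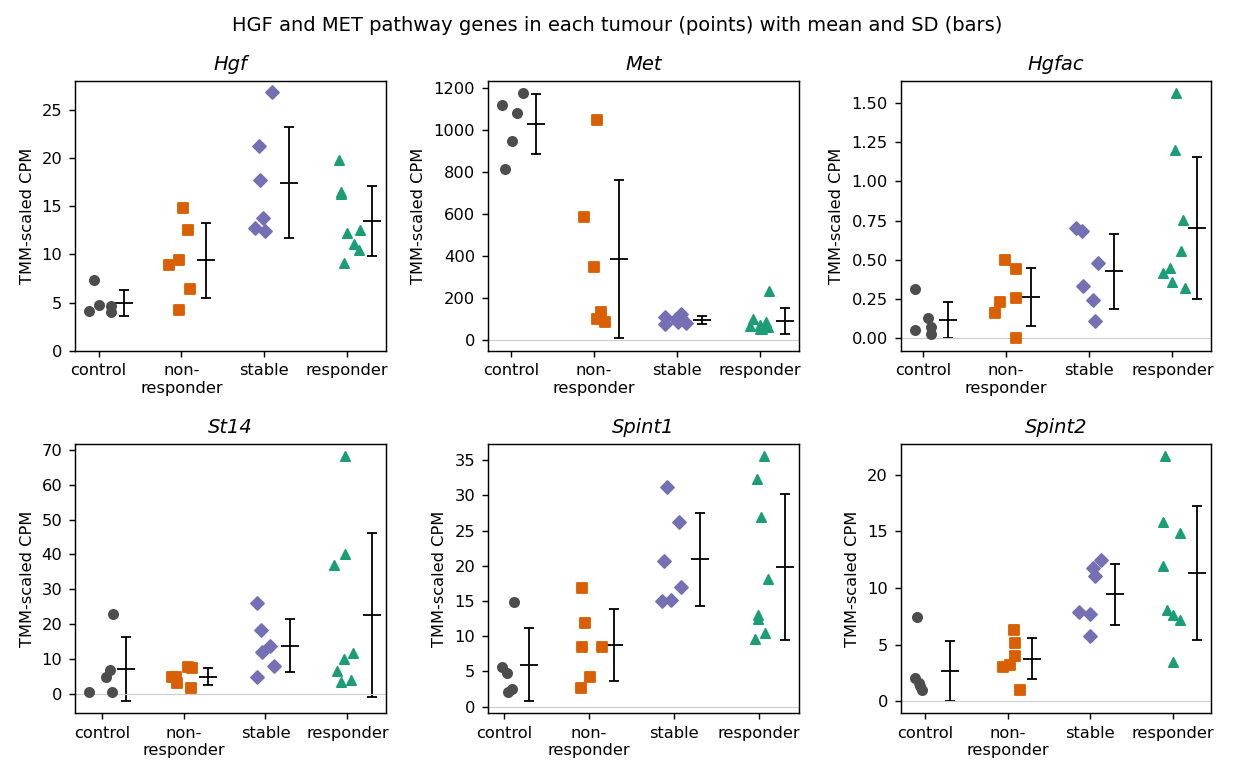
Each panel plots 1 gene: TMM-scaled CPM (y axis, linear) of every tumour by group (x axis), with the mean and SD as a bar beside the points. Met runs from 816 to 1174 CPM in controls and up to 123 CPM in stable tumours and 235 CPM in responders, and the other 5 genes have their lowest mean in controls, except St14, whose lowest mean is in non-responders.

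In responders against controls, Met fell by 3.48 on the log2 scale (SE 0.47, edgeR adjusted p = 1.58e-06), which is 11.2-fold. In stable tumours against controls it fell by 3.42 (SE 0.52, adjusted p = 1.32e-05), which is 10.7-fold. Against non-responders it fell by 2.06 in responders (SE 0.44, adjusted p = 0.00078) and by 2.01 in stable tumours (SE 0.48, adjusted p = 0.00826). Between responders and stable tumours the log2 fold change was -0.06 (SE 0.43, adjusted p = 0.928). Non-responders were at -1.42 against controls (SE 0.49, adjusted p = 0.0532), which missed the threshold narrowly. It passed without non-responder 3 (-2.03, adjusted p = 0.00207), without non-responder 2 or responder 3, and under 8 of the other settings, among them DESeq2 and limma on log2(RPKM + 1).

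The fall of Met in responders against non-responders was kept in every fit that left out 1 tumour, with log2 fold changes between -2.43 and -1.46. Non-responders 4, 5 and 6, at 135, 103 and 89.0 CPM, lay within the responder range of 51.3 to 235 CPM. Leaving out 1 tumour at a time does not test whether the fall rests on non-responders 1, 2 and 3. Adjusted for the protein-coding share, Met was at -1.51 (SE 0.57, edgeR adjusted p = 0.0817) and lost its call. With the log2 of that share it was at -1.72 (SE 0.51, adjusted p = 0.0194). The SE was 0.44 without adjustment, and neither fit can separate the share from the responder group. Against controls, both the responder and the stable difference passed the threshold under every alternative.

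Levels of different genes can be compared only per gene length. The authors' RPKM (reads scaled to gene length and library size) allow that only as far as the lengths behind them, which were not given, are right. Met had 112 ± 13.3 RPKM in controls (SD, n = 5), which put it at rank 331 to 425 of 19495 symbols. In stable tumours it had 10.1 ± 1.70 RPKM (SD, n = 6), at rank 3845 to 5893, and in responders 10.7 ± 6.14 RPKM (SD, n = 8), at rank 1696 to 7265. Hgf had 1.19 ± 0.289 RPKM in controls, 2.29 ± 0.891 RPKM in non-responders, 3.83 ± 1.04 RPKM in stable tumours and 3.41 ± 0.705 RPKM in responders (SD). By these RPKM, receptor transcript exceeded ligand transcript in every tumour.

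The ratio of Met to Hgf within 1 tumour does not depend on how libraries are scaled, but its size depends on the gene lengths used. In control 1, 1081 CPM of Met stood at 114 RPKM and 4.70 CPM of Hgf at 1.09 RPKM. The annotated exons of Met and Hgf span 7679 and 7186 bases, and with those lengths the ratio in control 1 would be higher than the RPKM ratio of 105. The size of the RPKM ratios is therefore read between groups only. The lowest, median and highest RPKM ratio of Met to Hgf was 75.0, 105 and 109 in controls and 1.85, 2.60 and 4.35 in stable tumours. In responders it was 2.09, 2.48 and 6.93. In non-responders it ran from 3.59 to 118, with non-responder 3 at 118, non-responders 2 and 1 at 38.5 and 16.7, and non-responders 4, 5 and 6 at 4.23, 5.21 and 3.59. Controls did not overlap with stable tumours or responders, and non-responders ran from within the range of those groups to above the highest control.

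**Figure D2:**
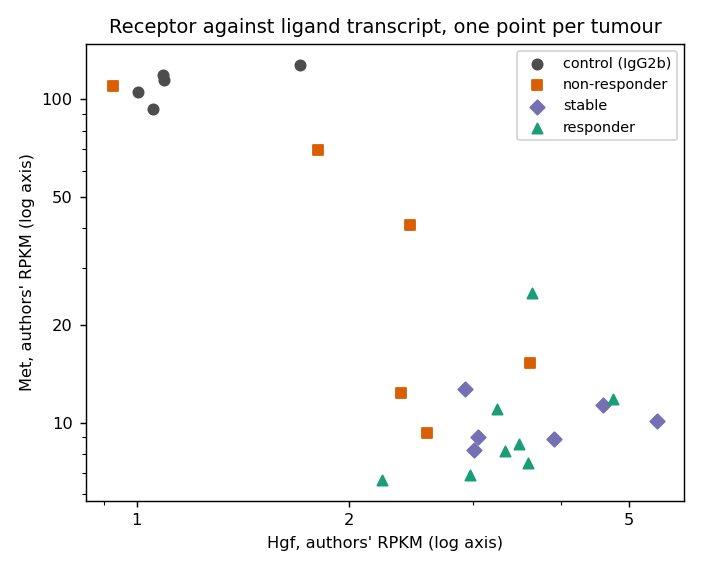
Met (y axis) against Hgf (x axis) in the authors' RPKM, both on log axes, 1 point per tumour. Controls sit at the top left with at least 93.1 RPKM of Met, stable tumours and responders at the bottom right, and non-responders are spread between both ends.

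Of the 2 activating proteases, Hgfac was close to the limit of detection. Hgfac (ENSMUSG00000029102.9, chromosome 5, 35041509 to 35048461, plus strand) encodes a plasma protease made mainly in the liver. Its pooled counts were 16 over 5 controls, 37 over 6 non-responders, 48 over 6 stable tumours and 69 over 8 responders. These are 0.115 CPM (95% counting interval 0.066 to 0.188), 0.277 CPM (0.195 to 0.382), 0.416 CPM (0.307 to 0.552) and 0.635 CPM (0.494 to 0.804). Non-responder 3 had 0 counts, which allows up to 0.129 CPM.

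Every responder lay above every control for Hgfac, with a highest control of 0.313 CPM and a lowest responder of 0.322 CPM. The log2 fold change was 2.44 (SE 0.65, edgeR adjusted p = 0.00229), at 0.120 ± 0.115 CPM in controls and 0.703 ± 0.45 CPM in responders (SD), but adjusted for the protein-coding share it was 1.65 (adjusted p = 0.0745) and not called. Stable tumours were above controls by 1.78 (SE 0.67, adjusted p = 0.0342), a call that needed each of controls 1, 2, 4 and 5 and stable 1, 4 and 6, and that was lost without the low-count filter and with limma on log2(RPKM + 1) without a filter. The liver markers Alb, Apoa1 and Ttr summed to 1.29 to 4.36 CPM in controls and at most 0.1 CPM in responders, a sum carried by Ttr, which was at 0 in all responders. Alb and Apoa1 reached at most 0.731 and 0.341 CPM in any tumour, both in stable tumours. Differences among the groups under anti-CTLA-4 did not pass the threshold, the nearest being responders against non-responders at 1.30 (SE 0.57, adjusted p = 0.0627), which DESeq2 called at 1.32 (adjusted p = 0.0451).

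St14 (ENSMUSG00000031995.9, chromosome 9, 31089402 to 31131853, minus strand), the gene of matriptase, varied widely within controls and responders. Controls 1 to 5 had 0.4, 4.86, 22.8, 6.77 and 0.517 CPM. The lowest, median and highest level was 1.59, 4.79 and 7.79 CPM in non-responders, 4.67, 12.8 and 26.1 CPM in stable tumours and 3.44, 10.8 and 68.3 CPM in responders. All groups overlapped, although 5 of 8 responders and 5 of 6 stable tumours lay above every non-responder.

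St14 rose in responders against non-responders by 2.20 on the log2 scale (SE 0.79, edgeR adjusted p = 0.025), from 4.88 ± 2.39 CPM to 22.7 ± 23.5 CPM (SD). The call did not hold when responder 1 (1.74, adjusted p = 0.0605) or non-responder 2 or 3 was dropped, without the low-count filter, or with limma on log2(RPKM + 0.1) or on log2(RPKM + 1) without a filter. Adjusted for the protein-coding share the log2 fold change was 0.67 (adjusted p = 0.622), or 1.03 (adjusted p = 0.341) with its log2. Stable tumours against non-responders gave 1.51 (SE 0.80, adjusted p = 0.212), and were called only when these groups alone were fitted (adjusted p = 0.0405). Against controls the log2 fold change was 1.65 in responders (SE 0.82, adjusted p = 0.0792), 0.97 in stable tumours (SE 0.83, adjusted p = 0.376) and -0.54 in non-responders (SE 0.82, adjusted p = 0.693). Control 3, the highest control, decided these values: without it the log2 fold change was 2.80 in responders (adjusted p = 0.00758), 2.12 in stable tumours and 0.61 in non-responders.

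Transcripts of both inhibitors were higher in stable tumours and responders than in controls. Spint1 (ENSMUSG00000027315.13, chromosome 2, 119237362 to 119249527, plus strand) stood at 2.03, 5.60, 14.8, 4.71 and 2.53 CPM in controls 1 to 5. Its lowest, median and highest level was 2.62, 8.47 and 16.8 CPM in non-responders, 15.1, 18.9 and 31.2 CPM in stable tumours and 9.58, 15.6 and 35.6 CPM in responders. Every stable tumour lay above every control, while responders and controls overlapped only through control 3.

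Spint1 rose in stable tumours against controls by 1.82 (SE 0.49, edgeR adjusted p = 0.0045) and in responders against controls by 1.73 (SE 0.48, adjusted p = 0.00293). Adjusted for the protein-coding share the responder value was 1.32 (adjusted p = 0.0563) and not called. Against non-responders, Spint1 rose in responders by 1.17 (SE 0.44, adjusted p = 0.0298), a call that did not hold once responder 1, 2 or 4 or non-responder 2 or 3 was dropped, without the low-count filter, or after adjusting for the share. Stable tumours against non-responders, at 1.26 (SE 0.46, adjusted p = 0.0636), were not called, but were under DESeq2 (1.26, adjusted p = 0.0332) and limma on log2(RPKM + 1).

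Spint2 (ENSMUSG00000074227.12, chromosome 7, 29256323 to 29281912, minus strand) was also lowest in controls, but its mean was highest in responders, where that of Spint1 was highest in stable tumours. Controls 1 to 5 had 0.967, 2.03, 7.40, 1.62 and 1.35 CPM, and the lowest, median and highest level was 0.988, 3.58 and 6.31 CPM in non-responders, 5.72, 9.47 and 12.5 CPM in stable tumours and 3.49, 9.98 and 21.6 CPM in responders. Of the 8 responders, 7 lay above every non-responder, the exception being responder 3 at 3.49 CPM.

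Spint2 rose in responders against non-responders by 1.57 (SE 0.45, edgeR adjusted p = 0.00662), from 3.76 ± 1.84 CPM to 11.3 ± 5.88 CPM (SD), in every fit that left out 1 tumour. Adjusted for the protein-coding share the value was 0.92 (adjusted p = 0.225), and with its log2 1.08 (adjusted p = 0.0957). Against controls it rose by 2.07 in responders (SE 0.49, adjusted p = 0.000805) and by 1.82 in stable tumours (SE 0.50, adjusted p = 0.00484), without control 3 by 2.90 and 2.66. Stable tumours against non-responders, at 1.32 (SE 0.46, adjusted p = 0.0548), were called under DESeq2, limma on log2(RPKM + 1), a fit of only these groups and either form of the covariate.

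Matriptase and its inhibitors are genes of epithelial cells, and a tumour piece can hold skin. The 7 keratinocyte and epithelial markers (Krt5, Krt14, Krt10, Krt15, Epcam, Cdh1, Dsp) summed to 49.6 to 1046 CPM in controls, with control 3 the highest, 33.7 to 513 CPM in non-responders, 47.7 to 424 CPM in stable tumours and 36.0 to 1830 CPM in responders, and none was at 0 in a whole group. Responders 1, 2 and 4, the 3 highest for St14, Spint1 and Spint2, had sums of 1314, 963 and 877 CPM and protein-coding shares of 23.8%, 72.7% and 54.2%. Responder 8, with the highest sum of 1830 CPM, had 11.8 CPM of St14 and 13.1 CPM of Spint1, below 3 and 4 other responders.

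The tumours with the lowest epithelial sums of each group are given by their values. Responders 3 and 5, with sums of 45.5 and 36.0 CPM, had 12.5 and 18.1 CPM of Spint1 and 3.49 and 8.04 CPM of Spint2. Stable tumours 3 and 6, with sums of 51.2 and 47.7 CPM, had 17.1 and 15.1 CPM of Spint1 and 11.1 and 5.72 CPM of Spint2. Controls 1 and 5, with sums of 72.6 and 49.6 CPM, had 2.03 and 2.53 CPM of Spint1 and 0.967 and 1.35 CPM of Spint2. Non-responders 4 and 6, with sums of 42.9 and 33.7 CPM, had 8.45 and 16.8 CPM of Spint1 and 4.00 and 6.31 CPM of Spint2. In these tumours both controls lay below all others for both inhibitors, while non-responders overlapped stable tumours and responders. Non-responder 3, with the next sum of its group at 77.7 CPM, had 2.62 CPM of Spint1 and 0.988 CPM of Spint2, close to these controls. The part of skin in the group differences was not tested.

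**Figure D3:**
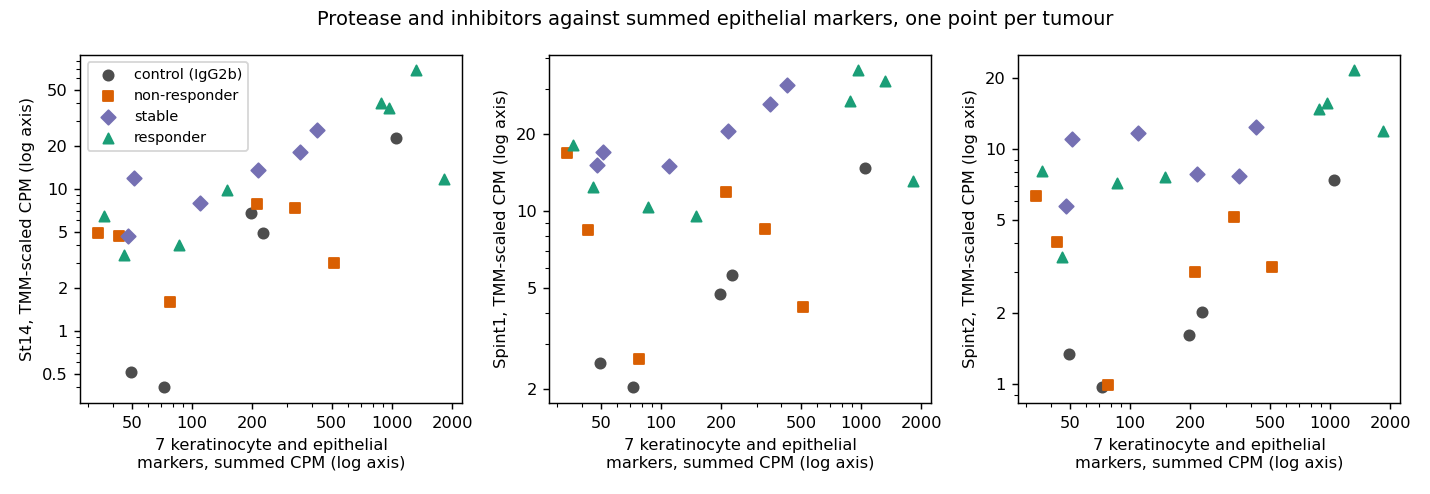
St14, Spint1 and Spint2 (y axes, TMM-scaled CPM, log) against the summed CPM of 7 keratinocyte and epithelial markers (x axes, log), 1 point per tumour. The 3 highest St14 levels lie at sums of 877 to 1314 CPM. Control 3, at a sum of 1046 CPM, lies right of all stable tumours. The other controls lie below stable tumours of like sum in the Spint1 and Spint2 panels. The part of skin was not tested.

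Counted together, 4 of the 6 genes were called in responders against non-responders, 3 higher and 1 lower, where 48.9% of all 18032 genes tested were called. In responders against controls it was 5 (4 higher, 1 lower) with 65% of all genes called, and in stable tumours against controls 5 (4 higher, 1 lower) with 41.8%. In stable tumours against non-responders 2 were called (1 higher, 1 lower) with 14.9% of all genes, and in non-responders against controls 1, higher, with 13.9%. In responders against stable tumours 0 were called by edgeR, and 0 had an unadjusted p under 0.05, with 38.2% of all genes called, while DESeq2 also called 0 and limma on log2(RPKM + 1) without a filter called 1. By direction, the background was 25.2% higher and 23.8% lower in responders against non-responders, 36.1% and 28.9% in responders against controls, 22.2% and 19.6% in stable tumours against controls, 7.08% and 7.86% in stable tumours against non-responders, 10.6% and 3.29% in non-responders against controls, and 20.5% and 17.8% in responders against stable tumours. With so large a background the counts over 6 genes are not read as a result about them. Adjusted for the protein-coding share, 0 of the 6 were called in responders against non-responders, with 10% of all genes, or 2 with its log2, with 25.7% of all genes, and 3 in responders against controls, with 45.3% of all genes. The median log2 fold change of all genes in responders against controls was 0.16, or 0.03 when only protein-coding genes were scaled and tested. The 3 comparisons with controls share the same 5 controls.

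**Figure D4:**
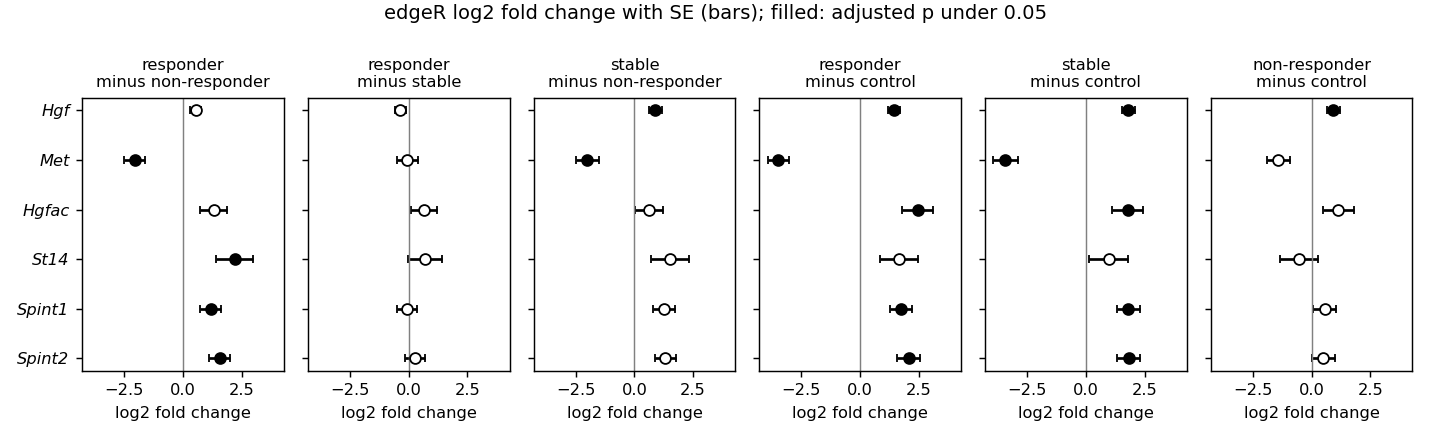
Log2 fold change (x axis) with SE of the 6 genes in the 6 comparisons, filled where the edgeR adjusted p was under 0.05. Met lies left of 0 in all panels, at -0.06 in responders against stable tumours, Spint2 lies right of 0 in all panels, and Hgf and Spint1 lie right of 0 in all panels except that one, where limma on log2(RPKM + 1) puts Spint1 at 0.03.

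Melanocyte genes were lower in the same groups as Met. Mitf, the melanocyte master regulator, had 453 ± 113 CPM in controls, 212 ± 147 CPM in non-responders, 89.8 ± 4.78 CPM in stable tumours and 81.2 ± 15.6 CPM in responders (SD). Within the non-responders, tumours 3, 2 and 1 had 471, 293 and 189 CPM of Mitf and 6513, 3064 and 1570 CPM of Dct, a pigment enzyme, in the same order as their Met, and tumours 4, 5 and 6 had 117, 99.2 and 105 CPM of Mitf. Responder 3, the responder with the most Met, had 60.3 CPM of Mitf, the lowest of all tumours, and 3 counts of Dct. It also had the highest Sox10 and Pax3 of the responders, at 314 and 52.3 CPM, where the others ran up to 202 and 39.4 CPM.

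Of the 6 factors known to act on Met in various tissues (Mitf, Pax3, Sox10, Ets1, Hif1a, Sp1), 5 were lower in responders than in non-responders and none was higher, with a median log2 fold change of -0.48 against 0.05 over all genes tested, of which 23.8% were lower and 25.2% higher. These were Mitf (-1.39, edgeR adjusted p = 0.000329), Pax3 (-0.84), Sox10 (-0.52), Ets1 (-0.45) and Sp1 (-0.34). In stable tumours against non-responders 3 were lower, Mitf (-1.24), Pax3 (-1.34) and Sox10 (-0.71), and none was higher, where 7.86% of all genes were lower and 7.08% higher. Mitf and Sox10 are also among the melanocytic markers above.

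Metallothioneins, whose promoter drives the Hgf transgene of the mouse model, were lower where Met was lower and Hgf higher. Mt1 had 293 ± 53.3 CPM in controls, 119 ± 104 CPM in non-responders, 47.0 ± 11.1 CPM in stable tumours and 38.3 ± 25.1 CPM in responders (SD). It fell by 1.63 in responders (SE 0.41, edgeR adjusted p = 0.00277) and by 1.34 in stable tumours (SE 0.44, adjusted p = 0.0424) against non-responders. Responder 3 had the highest Mt1 of the responders, at 90.2 CPM. Mt2 fell by 1.30 in responders and did not pass the threshold in stable tumours (-1.07, adjusted p = 0.102).

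**Figure D5:**
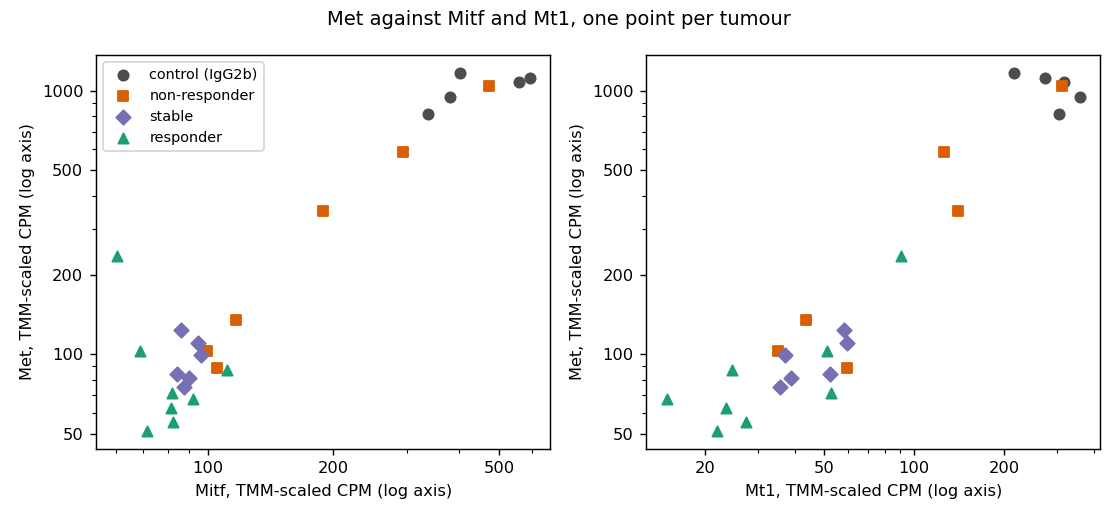
Met (y axes) against Mitf and Mt1 (x axes) in TMM-scaled CPM, all log axes, 1 point per tumour. Controls and non-responder 3 share the top right corner, non-responders 2 and 1 lie between, and responder 3, at 235 CPM of Met, lies off the rest in the Mitf panel and near it in the Mt1 panel.

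Among 9 other proteases that can cut HGF or sit upstream of matriptase, 5 passed the filter. Plat (tissue plasminogen activator) fell in responders against non-responders by 1.04 (edgeR adjusted p = 0.00338), and Plau (urokinase) rose in stable tumours against non-responders by 1.41 (adjusted p = 0.00405). Plau stood at 33.0 ± 5.08 CPM in controls, 55.1 ± 19.9 CPM in non-responders, 147 ± 64.4 CPM in stable tumours and 59.6 ± 25.1 CPM in responders (SD), and fell in responders against stable tumours by 1.30 (adjusted p = 0.00219). Mst1r, which encodes the MET relative RON, rose in responders by 0.96 (adjusted p = 0.00407), while its ligand gene Mst1 did not pass the filter.

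The rest of the pathway is given against non-responders. Of 6 co-receptors and HGF-binding proteins, Nrp1 (-0.85) and Itga6 (-0.71) were lower in responders and Plxnb1 (-0.75) in stable tumours, each against non-responders. Of 13 adaptors and effectors, 2 were higher in responders, Plcg1 (0.28) and Rapgef1 (0.20), and 2 lower, Ptpn11 (-0.45) and Pik3ca (-0.36), and Grb2 (0.45) alone was called in stable tumours. Of 8 negative regulators and sheddases, the ubiquitin ligase genes Cblb (1.18, adjusted p = 0.000266) and Cbl (0.58) and the phosphatase gene Ptpn1 (0.27) were higher in responders, and Ptprj (-0.44) and the sheddase gene Adam10 (-0.37) lower. In stable tumours Ptpn1 (0.36) and Adam17 (0.56) were higher. Over all 49 genes of these lists, of which 42 were tested, 7 were higher and 14 lower in responders against non-responders, with a median log2 fold change of -0.07 against 0.05 over all genes, of which 25.2% were higher and 23.8% lower. In stable tumours against non-responders 5 were higher and 5 lower, where 7.08% of all genes were higher and 7.86% lower.

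The genes whose profile over the 25 tumours was most like a member's are given as a description, since all profiles share library composition. For Met they were Ddah1, Syngr1 and Eps8, with mean absolute differences of 0.23, 0.30 and 0.35 log2 units, where Met itself deviated from its mean by 1.43 on average. For Hgf they were Lpxn, Tlr6 and Iqgap2, each at 0.19, against 0.63 for Hgf itself. For St14 they were Pkp3 (0.34), Sytl1 (0.47) and Nectin4 (0.49), against 1.25. For Spint1 they were Hopx (0.32), Lsr (0.34) and Crybg1 (0.35), against 0.91, and for Spint2 they were Rnf43 (0.31), Mpzl3 (0.32) and Ceacam19 (0.33), against 1.00. Hgfac was below 1 CPM and not compared.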

How the data were processed

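Bulk RNA libraries of 25 tumours were analysed, made with a stranded total RNA kit per the labels' protocols, although the labels also give the molecule as polyA RNA. The submitters' processing notes list bcl2fastq 2.17, Trimmomatic, STAR 2.5.1, RSEM 1.2.22 and the build mm10, with no role given for each. The authors deposited estimated counts (expected counts) per gene, not normalized, and 5.64% of the values were not whole, so they were rounded before any count model. All 55450 gene identifiers were found in GENCODE mouse release 21 (GRCm38), which gave positions and gene types. The authors also deposited RPKM values for 19522 symbols, and the gene lengths and the divisor behind them were not given in the sources used here. Of these, 27 symbols turned into dates were left out. Totals ran from 8.76 to 34.3 M counts.

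Tests used edgeR 4.0.16 in R 4.3.3: filterByExpr left 18032 genes, libraries were scaled with TMM, and 6 comparisons among 4 group means were tested over all 25 tumours by robust quasi-likelihood. P-values are two-sided, adjusted by Benjamini-Hochberg across every gene tested, and called under 0.05. The standard error is the absolute log2 fold change over the root of F. The script was tested on simulated data. A first bar on the share of changed genes recovered was missed in responders against non-responders. The genes missed had a low level and a wide spread. The bar was then set on genes of higher level, so recovery was not passed for members as low as Hgfac. Also run were DESeq2 1.42.0, RLE scaling, a stricter low-count filter or none, fits with just the groups compared, protein-coding genes only, the protein-coding share or its log2 as a covariate, limma 3.58.1 on log2(RPKM + 1) or log2(RPKM + 0.1), and leaving out each tumour in turn. The log2 covariate was added after seeing the data. Counting intervals are 95% exact Poisson intervals and, like the floor of 3 counts, cover counting error only.

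The members, lists, tests and rules were chosen with earlier results of these data known. All members are named. A gene of the other pathway lists is named where it was called in responders or in stable tumours against non-responders, except for a result that is not reported here. Likeness to a member is the mean absolute difference between log2 CPM profiles (prior count 2), each centred on its mean over 25 tumours, among 13226 protein-coding genes of at least 1 CPM.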

Additional observations from a re-analysis of the deposited data

Results flagged for a closer look

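Met in responder 3 stood apart from the other responders: on the log2 CPM scale it was 7.88 against 5.68 to 6.69 in the others, and the gap to its nearest neighbour was 0.542 of the group's range, above the critical value of 0.526 for 8 samples. Hgf in control 5 stood apart from the other controls, at 2.89 against 2.05 to 2.26, with a gap of 0.749 of the range, above the critical value of 0.71 for 5 samples. Of 24 combinations of gene and group tested, these 2 passed, and chance passes about 1 in 20.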

How the results depend on the processing

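No paired analysis was possible because replicate numbers were given in record order and pair no tumours. The number of the 6 genes called in responders against non-responders was 4, and became 2 with no low-count filter, 0 after adjusting for the protein-coding share and 2 for its log2, and 2 to 5 when each tumour was left out in turn (2 without non-responder 2, non-responder 3 or responder 1). In stable tumours against non-responders it was 2, and became 4 with DESeq2, a fit of only these groups and each of the 3 limma fits, and 1 to 4 over the tumours left out (4 without control 3 or non-responder 6, 1 without non-responder 2 or 3 or stable 3 or 4). In responders against controls it was 5, and 3 after adjusting for the share. In non-responders against controls it was 1, and became 2 with DESeq2, the stricter filter, protein-coding genes only, either covariate and the limma fits, 0 with no filter or only these groups, and 0 to 2 over the tumours left out. In responders against stable tumours it was 0, and 1 with limma on log2(RPKM + 1) without a filter. The causes were not tested.

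Direction changed only in differences that were not called. In responders against stable tumours, Met turned to 0.028 with the stricter filter, 0.47 with the share and 0.27 with its log2 (-0.42 to 0.031 over the tumours left out), and Spint1 to 0.017 with the stricter filter and 0.025, 0.017 and 0.025 with limma (-0.27 to 0.064). With the share, Hgfac turned to -0.085, St14 to -0.88 and Spint2 to -0.42, and with its log2 St14 turned to -0.50 and Spint2 to -0.25. In non-responders against controls, St14 turned to 0.26 with limma on log2(RPKM + 0.1), and ran from -0.85 to 0.61 over the tumours left out. Of 1272 values for 36 gene differences, 1160 kept direction and side of the threshold. After adjusting for the share, 10% of all genes were called in responders against non-responders and 0 in responders against stable tumours. Share and responder group largely coincide, so these fits cannot separate them. Depth limited Hgfac, at 0 to 24 counts per tumour.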

Other observations

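Genes within 500 kb of Met on chromosome 6 were looked at after the values of Met were seen. Of 9 tested neighbours, Cav1 and Cav2, which encode caveolae proteins, lie 157 and 183 kb before the start of Met (Cav1 -157 kb, Cav2 -183 kb). They were lower in responders than in non-responders by log2 fold changes of -0.99 and -0.98 (edgeR adjusted p = 0.00115 and 0.00235), and lower in stable tumours than in controls by -0.99 and -0.76. Capza2, 172 kb after it, was at -0.40 (adjusted p = 0.0317) in responders against non-responders and -0.03 (adjusted p = 0.92) in stable tumours against controls. Over the 9 neighbours the median was -0.20 in responders against non-responders, with 2 higher and 4 lower, and -0.33 in stable tumours against controls, with 1 higher and 4 lower, where Met itself was at -2.06 and -3.42. In stable tumours against non-responders, where Met was at -2.01, 0 of the 9 neighbours were called by edgeR and 1 had an unadjusted p under 0.05, and in responders against stable tumours, where Met was at -0.06, 3 were higher and 3 lower. The share of all genes called was 48.9%, 41.8%, 14.9% and 38.2% in these comparisons, in the order given.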
